A study of Rattus norvegicus with 42 samples.

Results

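The genes described here make, take up and export cholesterol. They comprise 29 genes, chosen by symbol for their place in the pathway: 7 enzymes of the mevalonate steps, 11 enzymes between squalene and cholesterol, 2 genes of transcriptional control, 5 genes of uptake and transport inside the cell, 3 efflux transporters and 1 storage enzyme. The choice was made with earlier results of these data known. Counts of these genes set against all genes are therefore no independent result. All 29 had a row among the 22929 genes of the RNA-Seq count table, and 28 passed the filter of more than 10 reads over all libraries, against 14092 genes (61.5%) of the whole table. They had 71 of 60999 regions of the pSer2 Pol2 table, and 13 of 3981 GR regions lay with their centres within 50 kb of a transcription start of one of the 29 genes.

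Livers came from male Sprague Dawley rats that had been adrenalectomised. All groups shared the adrenalectomy, a post-operative dose of dexamethasone and analgesic, and corticosterone (CORT) in the drinking saline up to a washout before infusion. CORT in a cyclodextrin carrier, or the carrier in saline as vehicle (VEH), was then given intravenously for 3 h, either as a 20 min pulse every 60 min (PULS) or at a constant rate (CONS). GR and pSer2 Pol2 ChIP-Seq came from the same chromatin and comprised 5 groups of 2 libraries, each pooling 6 rats: PEAK_140 (pulse peak, 140 min), NADIR_180 (pulse nadir, 180 min), CONS_140, CONS_180 and VEH, with 1 VEH library taken at 140 min and 1 at 180 min of a pulsatile vehicle infusion. RNA-Seq comprised 4 groups of 3 libraries at 180 min, namely PULS CORT, PULS VEH, CONS CORT and CONS VEH. The tissue is whole liver, so fewer cells of a type and less RNA per cell cannot be told apart.

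Cholesterol is built from acetyl-CoA. The mevalonate steps yield farnesyl diphosphate, which is also the source of other isoprenoids, and squalene synthase commits it to sterols. SREBP2, the product of Srebf2, is a transcription factor held in the endoplasmic reticulum with its escort SCAP and the INSIG proteins. When sterols are low it is released and raises transcription of the enzymes and of its own gene, usually together with NF-Y, which binds CCAAT boxes. When sterols are high, the nuclear receptor LXR raises the efflux transporters ABCA1, ABCG5 and ABCG8. The glucocorticoid receptor (GR) binds elements related to ACANNNTGT.

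Reads in genes numbered 3956379 to 7777219 per RNA library, and tags numbered 4938473 to 9326927 per pSer2 Pol2 library and 2051977 to 6715803 per GR library. All 8 hepatocyte markers were detected, with a summed level of 138681 to 192405 CPM (read counts scaled to a common library size) per library. In a list of CORT-responsive genes, 6 of 6 were called higher with both infusions by edgeR. Of all genes, 1.79% were called higher with PULS and 4.45% with CONS. The list was chosen with earlier results of these data known, so its count is no independent result. The hepatocyte sum overlapped between CONS CORT and CONS VEH but not with PULS, at 171990 to 192405 CPM in PULS CORT against 166918 to 167137 in PULS VEH. The markers did not move together: Alb, Ttr, Serpina1 and Apoa2 overlapped between the PULS groups. Cps1, Tf, Ass1 and Cyp2e1 were higher in every PULS CORT library, with Cps1 means of 12678 CPM in PULS CORT and 6470 in PULS VEH. Among markers of other liver cells, the summed level of 4 stellate cell genes was lower in every CORT library than in the VEH libraries of its pattern, and Reln made up most of that sum, with 147, 120.2 and 131 CPM in CONS CORT, 188, 178 and 178 in CONS VEH, 157, 134 and 126 in PULS CORT and 186, 229 and 194 in PULS VEH. Of the other stellate genes, Des and Lrat overlapped between CORT and VEH, and Dcn was called higher with CONS by edgeR. The summed levels of Kupffer cell (5 of 5 detected), endothelial (4 of 4), cholangiocyte (2 of 4) and leukocyte (2 of 3) markers overlapped between CORT and VEH in both patterns. The part of any of these markers in the results on sterol genes was not tested.

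Promoter sequence is shown first, as a description, and its part in any change was not tested. RefSeq entries (build GRCr8, 250 bases before to 50 after the start, 300 in all) were found for 23 of the 29 genes, the others being Stard4, Pmvk, Sqle, Scarb1, Fdft1 and Soat2. Each was searched on both strands for the CCAAT box, for the sterol regulatory element TCACNCCAC, for its core CACNCCA and for the GR half-site pair ACANNNTGT. The 5 promoters below belong to Hmgcs1 and Msmo1, with the greatest RNA changes, to Fdps and Nsdhl, lower in both RNA and pSer2 Pol2, and to Abca1, an efflux transporter that was not called. Capitals mark the matches to CCAAT (or ATTGG on the other strand), CACNCCA and ACANNNTGT.
Hmgcs1 promoter, chr2:53382054-53382353, plus strand: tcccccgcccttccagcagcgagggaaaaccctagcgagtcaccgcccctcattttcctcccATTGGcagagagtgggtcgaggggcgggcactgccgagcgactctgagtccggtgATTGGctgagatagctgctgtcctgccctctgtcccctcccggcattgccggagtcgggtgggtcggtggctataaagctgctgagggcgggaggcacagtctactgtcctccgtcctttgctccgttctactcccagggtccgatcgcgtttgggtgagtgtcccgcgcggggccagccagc
Fdps promoter, chr2:176804767-176805066, minus strand: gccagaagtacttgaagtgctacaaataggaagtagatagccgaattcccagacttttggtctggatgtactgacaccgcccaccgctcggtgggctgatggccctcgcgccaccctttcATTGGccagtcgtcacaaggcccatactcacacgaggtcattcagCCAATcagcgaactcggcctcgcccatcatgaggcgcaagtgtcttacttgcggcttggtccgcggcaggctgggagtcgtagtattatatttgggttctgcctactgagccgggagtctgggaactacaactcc
Msmo1 promoter, chr16:29746863-29747162, plus strand: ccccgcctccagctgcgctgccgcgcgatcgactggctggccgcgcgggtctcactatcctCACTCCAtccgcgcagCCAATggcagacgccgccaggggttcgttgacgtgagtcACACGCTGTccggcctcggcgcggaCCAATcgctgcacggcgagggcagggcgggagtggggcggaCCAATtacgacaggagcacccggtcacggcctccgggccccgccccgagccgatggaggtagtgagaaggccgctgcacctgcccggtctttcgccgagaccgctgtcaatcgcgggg
Nsdhl promoter, chrX:155817110-155817409, plus strand: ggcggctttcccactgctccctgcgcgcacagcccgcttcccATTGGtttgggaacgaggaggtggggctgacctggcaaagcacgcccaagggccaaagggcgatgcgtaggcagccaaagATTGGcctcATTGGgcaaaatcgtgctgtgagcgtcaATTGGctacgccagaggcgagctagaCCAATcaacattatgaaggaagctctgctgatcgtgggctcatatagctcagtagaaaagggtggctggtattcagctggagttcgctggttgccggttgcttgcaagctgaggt
Abca1 promoter, chr5:72596424-72596723, minus strand: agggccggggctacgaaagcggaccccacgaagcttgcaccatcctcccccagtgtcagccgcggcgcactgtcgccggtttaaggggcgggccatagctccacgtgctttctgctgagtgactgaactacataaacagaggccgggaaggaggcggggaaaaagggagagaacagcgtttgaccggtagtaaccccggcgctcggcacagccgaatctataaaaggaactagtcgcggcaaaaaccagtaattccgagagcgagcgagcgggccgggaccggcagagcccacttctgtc

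Hmgcs1 and Fdps held 2 CCAAT boxes each, Msmo1 held 3 and Nsdhl held 5, and no match fell in the Abca1 window. The presence of a box did not by itself separate enzymes from efflux genes. Abcg5 and Abcg8 held 1 each, at the same bases. Of the genes without a box (Acat2, Cyp51, Dhcr7, Scap, Npc1 and Abca1) 4 were among those lower in RNA. A CCAAT box was present in 17 of the 23 promoters (73.9%), against 37.5% of all 33469 promoters of the RefSeq table, and 12 of the 23 had 2 or more. These 12 were Hmgcs1, Mvk, Mvd, Idi1, Fdps, Tm7sf2, Msmo1, Nsdhl, Hsd17b7, Ebp, Npc2 and Mylip, with no efflux transporter among them. Whether the number of boxes differs between roles was not tested. The 17 included 5 of the mevalonate enzymes (Hmgcs1, Mvk, Mvd, Idi1 and Fdps). The SRE core was present in 5 of 23 (21.7%; Acat2, Tm7sf2, Msmo1, Ebp and Srebf2) against 17.2% of all promoters, and the longer SRE in 0 of 23 against 1.12%. ACANNNTGT was present in 3 of 23 (13%; Msmo1, Abcg5 and Abcg8) against 6.86% of all promoters. The Abcg5 and Abcg8 windows overlap on opposite strands, so that their matches are the same bases. A match says only that these letters are present, and the windows were not tested for binding.

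The RNA comparison asked how much transcript was left at 180 min after each pattern of CORT. After constant infusion most of the synthesis genes fell. Of the 28 genes, 16 were called lower and 0 higher by edgeR's quasi-likelihood test (a call needed an adjusted p under 0.05 together with at least a 1.5-fold change), where 4.75% of all genes were called lower and 9.2% in either direction. The 16 comprised 6 of 7 mevalonate enzymes, 8 of 10 enzymes from squalene to cholesterol, 1 of 2 control genes, 1 of 5 uptake and transport genes, 0 of 3 efflux transporters and 0 of 1 storage enzyme. The median log2 fold change was -0.78 over the 28 genes, against -0.0099 over all 14092. All 3 CONS CORT libraries lay below all 3 CONS VEH libraries for 17 of the 28 genes, against 14.8% of all genes. Leaving out 1 library at a time gave 13 to 17 called genes and medians of -0.86 to -0.63. CONS CORT replicate 3 was the highest of its group in 19 genes and CONS VEH replicate 2 in 18.

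After pulsatile infusion, 0 of 28 genes were called by edgeR, where 4.23% of all genes were called and 2.44% called lower. At an unadjusted p below 0.05 there were 8, and DESeq2 called 0. Here and below, counts at an unadjusted p, counts by DESeq2 and counts below 0 stand without the share of all genes or regions. No result about sterol genes is read from them. The fitted change was below 0 in 26 of 28 genes, with a median of -0.26 against -0.013 over all genes, and for 3 genes (Hmgcs1, Mvd and Npc1) all PULS CORT libraries lay below all PULS VEH libraries, against 12.8% of all genes. Single libraries moved these values in both directions. PULS VEH replicate 3 was the highest of its group in 22 of 28 genes, and without it the median was -0.13, with 24 genes below 0, Fdft1 at -0.33 and Fdps at -0.35. PULS CORT replicate 2 was the highest of its group in 24, and without it the median was -0.43 and Hmgcs1 (log2 fold change -1.27, adjusted p = 0.0403) and Mvd (-1.33, adjusted p = 0.0173) were called by edgeR. Without PULS VEH replicate 2, Nsdhl was called (-0.64, adjusted p = 0.0347).

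**Figure D1:**
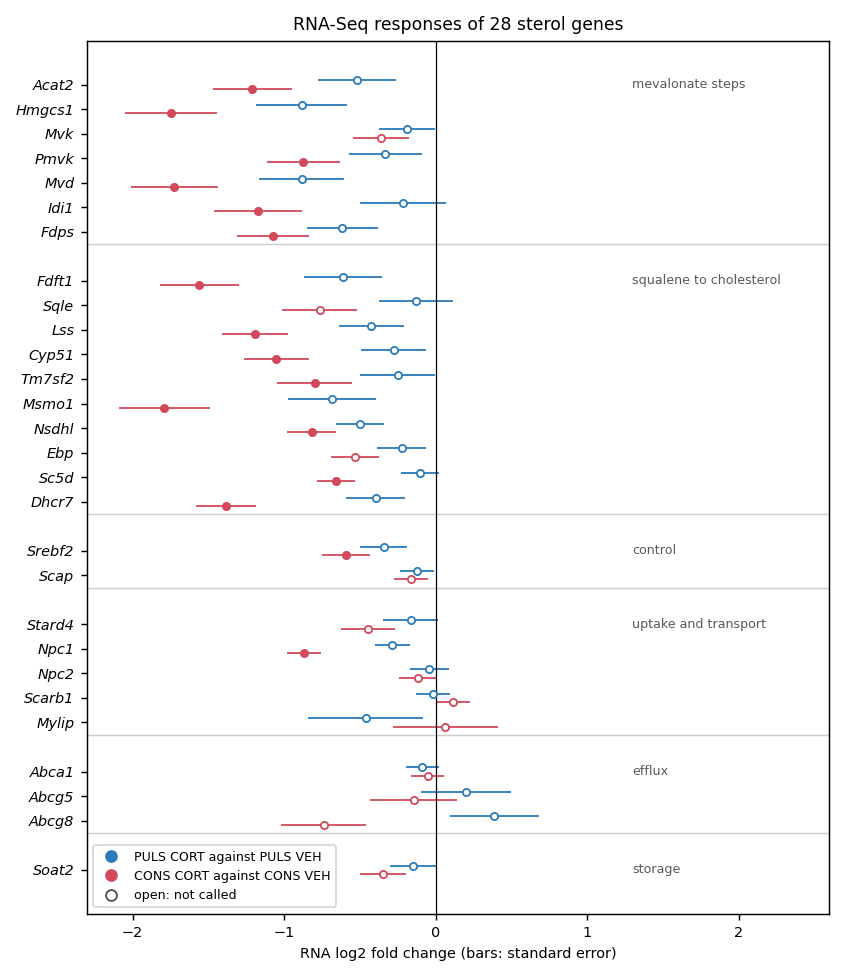
RNA log2 fold change (horizontal axis) of each sterol gene after pulsatile (blue) and constant (red) CORT against vehicle of the same pattern. Bars are standard errors, filled points were called, and the red points of the synthesis enzymes lie left of the blue ones, down to -1.79 for Msmo1, while those of Abca1 and Scarb1 lie near 0.

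By edgeR with all 12 libraries and the read filter, the difference between the patterns did not pass the test for any of the 28 genes. The difference of the CONS and PULS responses, tested as an interaction, was called for 0 of 28 genes by edgeR (9 at an unadjusted p below 0.05, and 2 by DESeq2), where 0.0284% of all genes were called. It was below 0 in 25 of 28 genes with a median of -0.54. The greatest differences were -1.13 for Abcg8 (SE 0.40, adjusted p = 0.246), -1.10 for Msmo1 (SE 0.41, adjusted p = 0.268) and -0.98 for Dhcr7 (SE 0.28, adjusted p = 0.148). CONS CORT set directly against PULS CORT gave 0 called genes (17 at an unadjusted p below 0.05, and 2 by DESeq2), where 0.887% of all genes were called. Leaving out 1 library at a time gave 0 to 3 called genes. The log2 fold change was below 0 in 26 of 28 genes, with a median of -0.47, and every CONS CORT library lay below every PULS CORT library in 10, against 7.9% of all genes. Npc1 came closest, at -0.49 (adjusted p = 0.0573). CONS VEH against PULS VEH gave 0 called genes (1 at an unadjusted p below 0.05, Abcg8, and 0 by DESeq2) with a background of 0%, and a median of 0.0100.

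The mevalonate steps begin with Acat2, the cytosolic thiolase that joins acetyl-CoA units. Acat2 stood at 39.3, 42.5 and 28.2 CPM in CONS VEH and 14.8, 10.98 and 22.2 CPM in CONS CORT, and at 32.4, 32.9 and 44.8 CPM in PULS VEH and 22.1, 36.8 and 18.1 CPM in PULS CORT. The constant groups did not overlap and the pulsatile groups did. The log2 fold change was -1.21 (SE 0.26, edgeR adjusted p = 0.00525) with CONS and -0.52 (SE 0.26, adjusted p = 0.278) with PULS. For Hmgcs1, the cytosolic HMG-CoA synthase, CONS VEH libraries held 786, 974 and 590.4 CPM and CONS CORT libraries 197, 150.1 and 355 CPM. PULS VEH libraries held 711, 651 and 975 CPM and PULS CORT libraries 323, 619 and 324 CPM. In both patterns every CORT library was below every VEH library, though replicate 2 of PULS CORT came within a short distance of the lowest VEH library. Hmgcs1 changed by -1.74 (SE 0.30, adjusted p = 0.00105) with CONS, a fall to 0.299 of the VEH level, and by -0.88 (SE 0.30, adjusted p = 0.0975) with PULS.

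Mvk, mevalonate kinase, was the mevalonate enzyme that was not called, at -0.36 with CONS (SE 0.19, edgeR adjusted p = 0.249). Pmvk, the next kinase, was at 24.2, 42.3 and 24.4 CPM in CONS VEH and 12.8, 18.7 and 17.02 CPM in CONS CORT, a change of -0.87 (SE 0.24, adjusted p = 0.0248). Its groups did not overlap, but CONS VEH replicate 2 was well above the others, and the call was lost without it (-0.57, adjusted p = 0.12), and also without CONS CORT replicate 1 or 3. In the pulsatile groups Pmvk was at 25.2, 26.2 and 38.2 CPM in VEH and 19.8, 31.2 and 20.4 CPM in CORT. Mvd, the decarboxylase that makes isopentenyl diphosphate, was at 16.98, 16.1 and 10.5 CPM in CONS VEH and 4.67, 3.66 and 5.02 CPM in CONS CORT. In PULS VEH it was at 14.1, 13.4 and 18.05 CPM, against 5.005, 12.9 and 7.21 CPM in PULS CORT. The 3 CONS CORT libraries were close together and far below VEH, and only PULS CORT replicate 2 came near its VEH group. Mvd changed by -1.72 (SE 0.29, adjusted p = 0.000766) with CONS and -0.88 (SE 0.28, adjusted p = 0.076) with PULS.

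Idi1, the isomerase of isopentenyl diphosphate, held 42.02, 42.1 and 40.2 CPM in CONS VEH and 19.9, 9.15 and 27.05 CPM in CONS CORT. The VEH libraries were nearly equal and the CORT libraries spread widely below them. Its log2 fold change was -1.17 (SE 0.29, edgeR adjusted p = 0.0134). With PULS the libraries overlapped, at 39.3, 36.4 and 44.8 CPM in VEH and 27.1, 51.7 and 25.4 CPM in CORT. Fdps, which makes farnesyl diphosphate, was at 371, 461 and 280.0 CPM in CONS VEH and 154, 162 and 213 CPM in CONS CORT, and at 391, 357 and 597 CPM in PULS VEH and 219, 396 and 264 CPM in PULS CORT. It fell in the constant comparison (-1.07, SE 0.24, adjusted p = 0.00615), without overlap, and was at -0.61 (adjusted p = 0.145) in the pulsatile one, where replicate 2 of PULS CORT lay above 2 of the VEH libraries.

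From squalene onwards, the first enzyme is Fdft1, squalene synthase. CONS VEH libraries held 192, 276 and 186 CPM of Fdft1 and CONS CORT libraries 67.02, 54.9 and 99.9 CPM, against 165, 165 and 271 CPM in PULS VEH and 101, 182 and 113 CPM in PULS CORT. The constant groups were well apart and the pulsatile ones overlapped through PULS CORT replicate 2. The change was -1.56 (SE 0.26, edgeR adjusted p = 0.000775) with CONS and -0.61 (SE 0.26, adjusted p = 0.192) with PULS. Sqle, squalene epoxidase, missed the threshold at -0.77 (SE 0.25, adjusted p = 0.0537), and CONS CORT replicate 3 lay above 1 CONS VEH library. Sqle was called without CONS CORT replicate 3 (-1.19, adjusted p = 0.00212), without PULS CORT replicate 2 (adjusted p = 0.0498) and by DESeq2 (adjusted p = 0.0331). Lss, which cyclises epoxysqualene to lanosterol, was at 119, 124 and 98.3 CPM in CONS VEH and 42.4, 37.7 and 69.5 CPM in CONS CORT, and at 89.1, 94.2 and 132 CPM in PULS VEH and 67.8, 101 and 66.6 CPM in PULS CORT. It changed by -1.19 (SE 0.22, adjusted p = 0.00159) with CONS and by -0.42 (adjusted p = 0.293) with PULS.

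The demethylation of lanosterol runs through Cyp51, Msmo1 and Nsdhl. Cyp51, the lanosterol demethylase, was at 348, 365 and 308 CPM in CONS VEH and 159.6, 113 and 220.5 CPM in CONS CORT, a change of -1.05 (SE 0.22, edgeR adjusted p = 0.00367). PULS VEH held 286, 304 and 408 CPM and PULS CORT 223, 351 and 249.8 CPM, which overlapped. Msmo1, the methylsterol monooxygenase, had the greatest RNA change of the 28 genes: 158, 197 and 105 CPM in CONS VEH fell to 35.3, 30.1 and 67.9 CPM in CONS CORT, or -1.79 on the log2 scale (SE 0.30, adjusted p = 0.000775). In the pulsatile groups Msmo1 was at 148, 126 and 167 CPM in VEH and 66.4, 133 and 76.1 CPM in CORT (-0.69, adjusted p = 0.197), where replicate 2 of CORT exceeded 1 VEH library. Nsdhl, the decarboxylating sterol dehydrogenase, was at 233, 261 and 208 CPM in CONS VEH and 124, 132 and 143 CPM in CONS CORT (-0.82, SE 0.16, adjusted p = 0.00262). It stood at 271, 216 and 334 CPM in PULS VEH and 161, 228 and 193 CPM in PULS CORT (-0.50, adjusted p = 0.081). The fall with CONS was without overlap for all 3 of these genes.

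Hsd17b7, the ketoreductase that acts with Nsdhl, had 0 reads in all 12 RNA libraries, which allows a level of up to 0.386 to 0.758 CPM, depending on the library, for counting error only. Tm7sf2, a sterol reductase, was at 94.7, 108 and 93.7 CPM in CONS VEH and 48.1, 36.7 and 86.2 CPM in CONS CORT (-0.80, SE 0.25, edgeR adjusted p = 0.0453). The call was near the threshold: it was lost without any one of CONS CORT replicates 1 and 2, the 3 CONS VEH libraries and PULS CORT replicate 3 (adjusted p = 0.0578 to 0.172). In the pulsatile groups Tm7sf2 was at 71.01, 84.02 and 108 CPM in VEH and 54.9, 90.5 and 76.6 CPM in CORT. Ebp, a sterol isomerase, was lower in every CONS CORT library (-0.53, adjusted p = 0.0351) but changed by less than 1.5-fold.

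Sc5d, the sterol desaturase, showed a small but tight fall, from 132, 139.5 and 145 CPM in CONS VEH to 92.4, 83.3 and 88.1 CPM in CONS CORT (-0.66, SE 0.12, edgeR adjusted p = 0.0019). With PULS the groups overlapped, at 122, 112 and 145 CPM in VEH and 105, 134 and 114 CPM in CORT (-0.10, adjusted p = 0.707). Dhcr7, which reduces 7-dehydrocholesterol to cholesterol, was at 118, 119 and 93.03 CPM in CONS VEH and 37.4, 38.8 and 50.5 CPM in CONS CORT, a change of -1.38 (SE 0.20, adjusted p = 0.000205). PULS VEH libraries held 77.5, 79.7 and 115 CPM and PULS CORT libraries 68.1, 88.5 and 49.97 CPM (-0.40, adjusted p = 0.276). Every CONS CORT library was below every CONS VEH library for both genes.

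**Figure D2:**
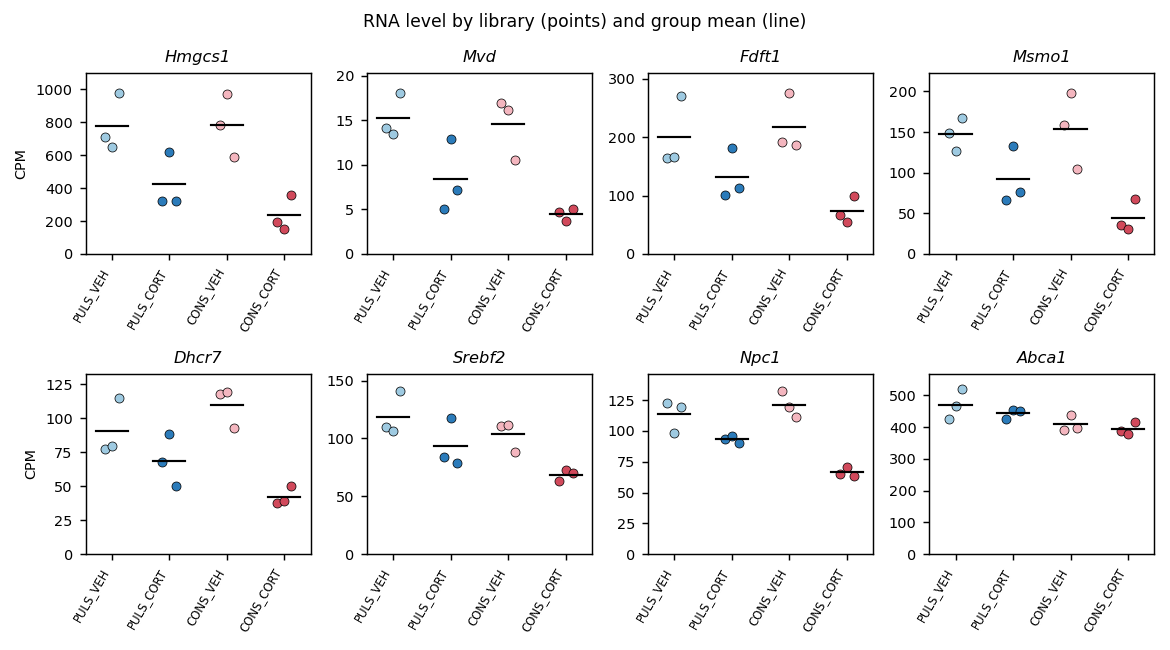
RNA level in CPM (vertical axis, from 0) of 8 sterol genes in each of the 12 RNA libraries, with the group mean as a line. CONS CORT libraries lie below all CONS VEH libraries for 7 of the 8 genes, and the groups of Abca1 overlap.

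Of the control genes, Srebf2 itself fell with constant CORT. Its CONS VEH libraries held 110.4, 112 and 88.3 CPM and its CONS CORT libraries 63.4, 72.8 and 70.03 CPM, without overlap, and the change of -0.59 (SE 0.16, edgeR adjusted p = 0.0208) was just past the fold threshold. The call was lost without CONS CORT replicate 1 or 3 or without CONS VEH replicate 1 or 2 (-0.59 to -0.53, adjusted p = 0.0612 to 0.0855). PULS VEH held 109.6, 106 and 141 CPM and PULS CORT 84.3, 118 and 78.8 CPM (-0.34, adjusted p = 0.237). Scap, the escort of SREBP2, was at 73.3, 67.9 and 74.2 CPM in CONS VEH and 59.7, 63.5 and 69.3 CPM in CONS CORT (-0.16, SE 0.11, adjusted p = 0.402), and at 79.3, 78.5 and 82.1 CPM in PULS VEH and 71.03, 83.6 and 65.9 CPM in PULS CORT. Its groups overlapped in both patterns.

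Among the genes of uptake and transport, Npc1, which carries cholesterol out of the lysosome, was called lower. Npc1 was at 132, 119.7 and 111 CPM in CONS VEH and 65.2, 70.7 and 63.2 CPM in CONS CORT, and at 123, 98.6 and 119 CPM in PULS VEH and 93.4, 95.9 and 89.99 CPM in PULS CORT. The libraries did not overlap in either pattern, and the gap was wider with CONS (-0.87, SE 0.11, edgeR adjusted p = 9.11e-05) than with PULS (-0.28, SE 0.11, adjusted p = 0.167), with a difference of -0.58 (adjusted p = 0.142). Npc2, its soluble partner, was at -0.12 (SE 0.12) with CONS and -0.041 (SE 0.13) with PULS. Stard4, a cytosolic sterol carrier, was at -0.45 (SE 0.18, adjusted p = 0.125) with CONS and -0.16 with PULS, and was called lower without CONS VEH replicate 1 (-0.62, adjusted p = 0.0308). Scarb1, the receptor for high-density lipoprotein, was at 73.7, 70.1 and 65.2 CPM in CONS VEH and 68.2, 78.5 and 79.5 CPM in CONS CORT, with a log2 fold change of 0.12 (SE 0.11, adjusted p = 0.579). Its pulsatile libraries were at 73.9, 70.4 and 78.4 CPM in VEH and 76.2, 78.4 and 65.1 CPM in CORT. Mylip, the ubiquitin ligase that degrades lipoprotein receptors, had between 1.24 and 7.72 CPM per library, too few reads for a narrow estimate (0.065, SE 0.35, with CONS).

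None of the 3 efflux transporters was called in either pattern. Abca1, which loads cholesterol onto apolipoproteins, was at 392, 439 and 397 CPM in CONS VEH and 388, 379 and 417 CPM in CONS CORT, and at 424, 467 and 519 CPM in PULS VEH and 426, 453 and 450.2 CPM in PULS CORT. The log2 fold changes were -0.053 (SE 0.11, edgeR adjusted p = 0.828) and -0.086 (SE 0.11, adjusted p = 0.728). Abcg5 and Abcg8 form the pump that secretes sterols into bile. Abcg5 varied within groups, at 77.2, 29.3 and 64.8 CPM in CONS VEH, 74.9, 35.8 and 47.5 CPM in CONS CORT, 46.7, 54.8 and 37.5 CPM in PULS VEH and 59.9, 57.4 and 42.3 CPM in PULS CORT, and its changes of -0.14 (SE 0.29) and 0.20 (SE 0.30) were smaller than their standard errors. Abcg8 was at 42.5, 15.2 and 27.3 CPM in CONS VEH and 21.5, 14.5 and 16.7 CPM in CONS CORT (-0.74, SE 0.28, adjusted p = 0.0998). CONS VEH replicate 2 was low, and without it Abcg8 was called lower (-1.02, adjusted p = 0.00815), whereas without CONS VEH replicate 1 the value was -0.30. In the pulsatile groups Abcg8 was at 18.5, 16.8 and 17.4 CPM in VEH and 23.9, 29.4 and 15.7 CPM in CORT (0.39, SE 0.29). Soat2, which esterifies cholesterol for storage, was at -0.35 (SE 0.15, adjusted p = 0.16) with CONS and -0.15 (SE 0.16) with PULS.

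The pSer2 Pol2 comparison asked whether elongating polymerase over the same genes changed within a pulse. Values are log2 occupancy over the first part of a transcript, and each gene was counted once, by its region with the highest mean. At PEAK_140, 6 of 29 genes were called lower against VEH and 0 higher by limma, where 0.588% of all genes were called lower and 0.958% in either direction. The 6 were Hmgcs1 and Fdps of the mevalonate steps and Fdft1, Cyp51, Nsdhl and Sc5d of the later steps. The PEAK_140 pair lay wholly below the VEH pair in 16 of 29 genes, against 12.4% of all genes: 3 of 7 mevalonate enzymes, 10 of 11 enzymes from squalene to cholesterol, Srebf2, Stard4 and Npc1, and 0 of 3 efflux transporters. The median log2 difference was -0.73, against -0.046 over all genes. With 2 libraries a group these calls leaned on the spread estimated across all groups: without 1 library the count was 0 to 4, being 0 without either VEH library or either NADIR_180 library, 1 without PEAK_140 replicate 1 and 2 without PEAK_140 replicate 2, and 1 without either CONS_140 library. The sign of the 6 differences was kept in every one of those fits.

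All comparisons with VEH share the same 2 VEH libraries. At NADIR_180, 40 min later, 0 of 29 genes were called by limma, where 0.00606% of all genes were called. At an unadjusted p below 0.05 by limma there were 9, a count without the share of all genes. Occupancy was below VEH in 20 of 29, both libraries were lower in 14 (11.5% of all genes), and the median was -0.23. Some of these gaps were close to 0: by more than 0.1, both libraries were lower in 15 genes at PEAK_140 (9.12% of all genes), 12 at NADIR_180 (2.5%), 9 at CONS_140 (1.75%) and 11 at CONS_180 (3.38%). At CONS_140, 1 gene was called, Hmgcs1, where 0.794% of all genes were called and 0.17% called lower. Leaving out 1 library at a time gave 0 to 3 called genes, so this call was not kept in every fit. Both libraries were lower in 10 of 29 (13.1% of all genes) and the median was -0.097, while the median of all genes lay at 0.15, a shift not removed here. Centring every library on its own median gave 7 called genes in CONS_140, 3 in CONS_180 and 1 in NADIR_180 (Idi1). The shares of all genes in this paragraph are from the fit without centring, so these counts cannot be set against them. At CONS_180, 0 genes were called (10 at an unadjusted p below 0.05), where 0.23% of all genes were called. Both libraries were lower in 11 of 29 (5.01% of all genes), and the median was -0.23.

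**Figure D3:**
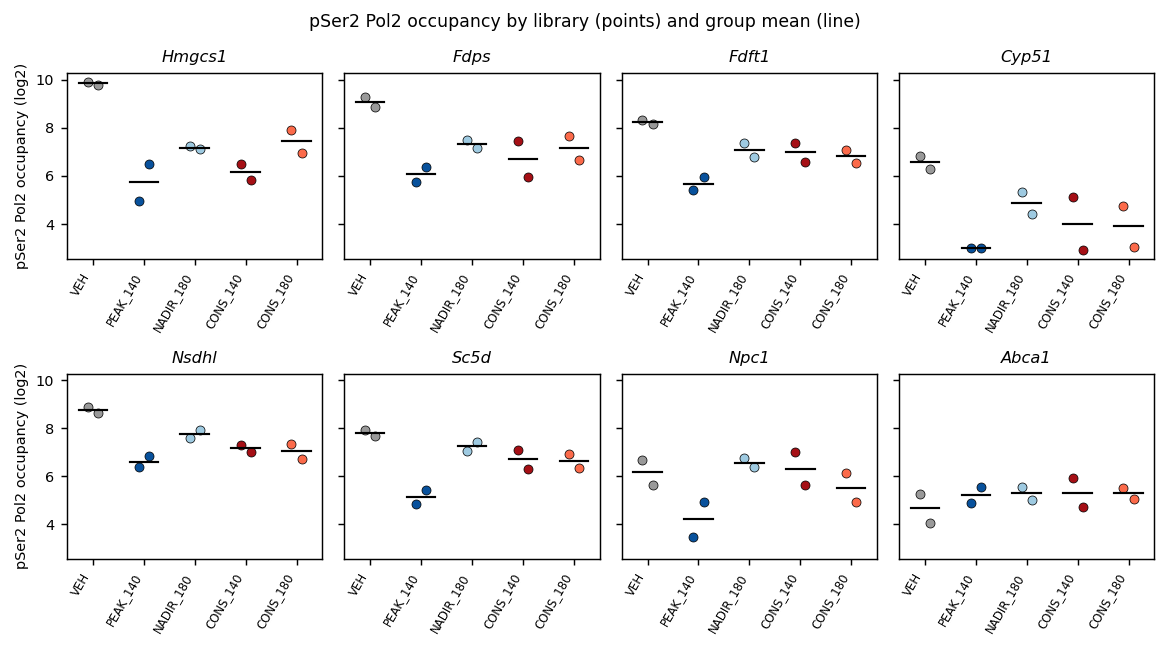
Deposited log2 pSer2 Pol2 occupancy (vertical axis, shared, not starting at 0) of 8 sterol genes in each of the 10 libraries, with the group mean as a line. For the 6 called enzymes the PEAK_140 points are the lowest or among the lowest, and Abca1 shows no such order.

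Hmgcs1, over chr2:52431601-52441601 (rn6), had the largest difference. It was at 9.92 and 9.77 in VEH, 4.94 and 6.52 in PEAK_140, 7.24 and 7.102 in NADIR_180, 6.47 and 5.84 in CONS_140 and 7.92 and 6.95 in CONS_180. Every CORT library was below both VEH libraries, and the 2 PEAK_140 libraries stood well apart from each other. The log2 difference from VEH was -4.12 in PEAK_140 (SE 0.51, limma adjusted p = 0.00369), -2.67 in NADIR_180 (adjusted p = 0.491), -3.68 in CONS_140 (adjusted p = 0.00664) and -2.41 in CONS_180 (adjusted p = 0.139). Fdps (chr2:188402329-188412329) was at 9.27 and 8.88 in VEH, 5.75 and 6.39 in PEAK_140, 7.501 and 7.17 in NADIR_180, 7.47 and 5.95 in CONS_140 and 7.65 and 6.65 in CONS_180. It was lower in all 8 CORT libraries than in either VEH library, and was called at PEAK_140 (-3.01, SE 0.51, adjusted p = 0.0186).

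Fdft1 (chr15:46357302-46367302) was at 8.34 and 8.14 in VEH and 5.42 and 5.94 in PEAK_140, a difference of -2.56 (SE 0.40, limma adjusted p = 0.0111). The other groups lay between them, at 7.38 and 6.797 in NADIR_180, 7.39 and 6.57 in CONS_140 and 7.08 and 6.55 in CONS_180. Cyp51 (chr4:27175243-27185243) was at 6.84 and 6.28 in VEH and 3.02 and 2.99 in PEAK_140 (-3.56, SE 0.68, adjusted p = 0.034). In the other groups it was at 5.34 and 4.42 (NADIR_180), 5.11 and 2.901 (CONS_140) and 4.76 and 3.06 (CONS_180), so that its lowest values recurred in 4 libraries.

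Nsdhl (chrX:152933069-152943069) was at 8.88 and 8.62 in VEH, 6.37 and 6.86 in PEAK_140, 7.58 and 7.93 in NADIR_180, 7.31 and 7.03 in CONS_140 and 7.35 and 6.71 in CONS_180. All CORT libraries were below VEH, and the PEAK_140 difference was -2.14 (SE 0.36, limma adjusted p = 0.015). Sc5d (chr8:46527050-46537050) was at 7.94 and 7.66 in VEH, 4.83 and 5.42 in PEAK_140, 7.07 and 7.404 in NADIR_180, 7.096 and 6.31 in CONS_140 and 6.92 and 6.36 in CONS_180. Its PEAK_140 libraries were the lowest of the 10 and its NADIR_180 libraries were close to VEH. The difference from VEH was -2.67 at PEAK_140 (SE 0.39, adjusted p = 0.00791) and -0.56 at NADIR_180 (SE 0.39, adjusted p = 0.9996).

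PEAK_140 set against NADIR_180 tests the swing within a pulse, with a difference that uses no VEH library and a spread estimated over all 10 libraries. Sc5d was called, at -2.11 (SE 0.39, limma adjusted p = 0.0467), and was the only 1 of 29, where 0.461% of all genes were called. With the replicate number as a block over the 8 CORT libraries the value was the same and the adjusted p was 0.0706, so that 0 genes were called, and the call was also lost in turn without each of the 10 libraries. The difference was below 0 in 25 of 29 genes with a median of -0.46, against -0.083 over all genes. CONS_180 against NADIR_180, the same clock time in the 2 patterns, gave 0 called genes by limma (0 at an unadjusted p below 0.05), where 0.17% of all genes were called, with a median of -0.028.

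Other enzymes had lower values at PEAK_140 that did not pass the test. Msmo1 (chr16:26859397-26869397) had a difference of -3.92 at PEAK_140 (SE 0.94, from the spread in all groups, limma adjusted p = 0.106), close in size to that of Hmgcs1. It was at 7.95 and 7.75 in VEH and 2.83 and 5.02 in PEAK_140, and its libraries differed widely within PEAK_140, CONS_140 and CONS_180. Its other libraries were at 5.17 and 5.83 in NADIR_180, 5.47 and 2.54 in CONS_140 and 6.15 and 4.12 in CONS_180, all below VEH. Lss was at 5.88 and 5.27 in VEH and 3.66 and 3.65 in PEAK_140 (-1.92, adjusted p = 0.228). Idi1 was at 4.62 and 4.65 in VEH and 3.36 and 3.36 in PEAK_140 (-1.27, adjusted p = 0.0724). Dhcr7 was at 5.39 and 4.76 in VEH and 3.67 and 3.66 in PEAK_140 (-1.41, adjusted p = 0.212). For these 3 genes too, both PEAK_140 libraries were below both VEH libraries. Tm7sf2 differed by -0.41 (SE 0.41), from 6.93 and 6.23 in VEH to 6.18 and 6.16 in PEAK_140 and 7.63 and 6.64 in CONS_140.

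For 9 of the 29 genes (Acat2, Mvk, Pmvk, Mvd, Idi1, Hsd17b7, Scap, Npc2 and Mylip) at least 5 of the 10 libraries lay within 0.1 of the gene's lowest value, and their range over all libraries was 0.22 to 1.29, against 1.14 to 5.41 for the other 20. Acat2 is an example, at 2.78 and 2.33 in VEH and 2.33 and 2.33 in PEAK_140. Mvd was at 2.78 and 2.31 in VEH and 2.31 and 2.31 in PEAK_140. These 9 include 5 of the 7 mevalonate enzymes. In 6 further genes (Lss, Tm7sf2, Dhcr7, Abcg5, Abcg8 and Soat2) both PEAK_140 libraries lay within 0.1 of the lowest value, with VEH replicate 2 there too for Tm7sf2, Abcg5, Abcg8 and Soat2. The 2 PEAK_140 libraries and the second library of both CONS groups were also the lowest 4 for Cyp51. Whether a further fall could have been measured in these genes was not tested. The first library of a pair was the higher one in 28 of 29 genes in VEH, 28 in CONS_140, 26 in CONS_180, 23 in NADIR_180 and 19 in PEAK_140, a shift between libraries whose part in the differences was not tested.

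Srebf2 (chr7:123381077-123391077) was at 7.04 and 6.13 in VEH, 5.52 and 5.19 in PEAK_140, 6.496 and 5.91 in NADIR_180, 6.63 and 5.67 in CONS_140 and 6.17 and 6.29 in CONS_180, with -1.23 at PEAK_140 (SE 0.43, limma adjusted p = 0.526). Scap stayed between 1.22 and 1.44 in all 10 libraries. Npc1 was at 6.67 and 5.65 in VEH, 3.47 and 4.93 in PEAK_140, 6.74 and 6.396 in NADIR_180, 7.02 and 5.62 in CONS_140 and 6.13 and 4.92 in CONS_180. Only its PEAK_140 libraries were both below VEH (-1.96, SE 0.62, adjusted p = 0.373), and the swing to NADIR_180 was -2.37 (adjusted p = 0.239).

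For polymerase too, none of the efflux transporters was called in any comparison. Abca1 (chr5:69973015-69983015) was at 5.25 and 4.07 in VEH, 4.88 and 5.55 in PEAK_140, 5.55 and 5.03 in NADIR_180, 5.91 and 4.72 in CONS_140 and 5.53 and 5.07 in CONS_180, and its difference at PEAK_140 was 0.55 (SE 0.50, limma adjusted p = 0.999). Abcg5 was at 5.202 and 3.83 in VEH and 3.83 and 3.82 in PEAK_140 (-0.69, SE 0.44), and reached 5.36 and 4.72 in CONS_140. Abcg8 was at 4.53 and 3.49 in VEH and 3.496 and 3.49 in PEAK_140 (-0.52, SE 0.58). Both genes overlapped between every CORT group and VEH, with 1 VEH library and both PEAK_140 libraries near the lowest value of the gene. Scarb1, counted over a transcript that starts inside the gene (chr12:36734372-36744372), was at 6.17 and 3.73 in VEH and 5.85 and 5.67 in PEAK_140 (0.81, SE 0.83), and its 2 VEH libraries were further apart than any group difference.

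All 6 genes called lower in pSer2 Pol2 at PEAK_140 were among the 16 called lower in RNA after constant CORT, that is 100% of the first list and 37.5% of the second. Among all 91 genes called lower in pSer2 Pol2 at PEAK_140 and tested in RNA, 53 (58.2%) were also called lower in RNA after constant CORT. The 10 others in RNA were Acat2, Pmvk, Mvd, Idi1, Lss, Tm7sf2, Msmo1, Dhcr7, Srebf2 and Npc1. The 2 assays share no library, but differ in pattern and time: polymerase was called at the peak of a pulse and RNA after constant infusion.

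**Figure D4:**
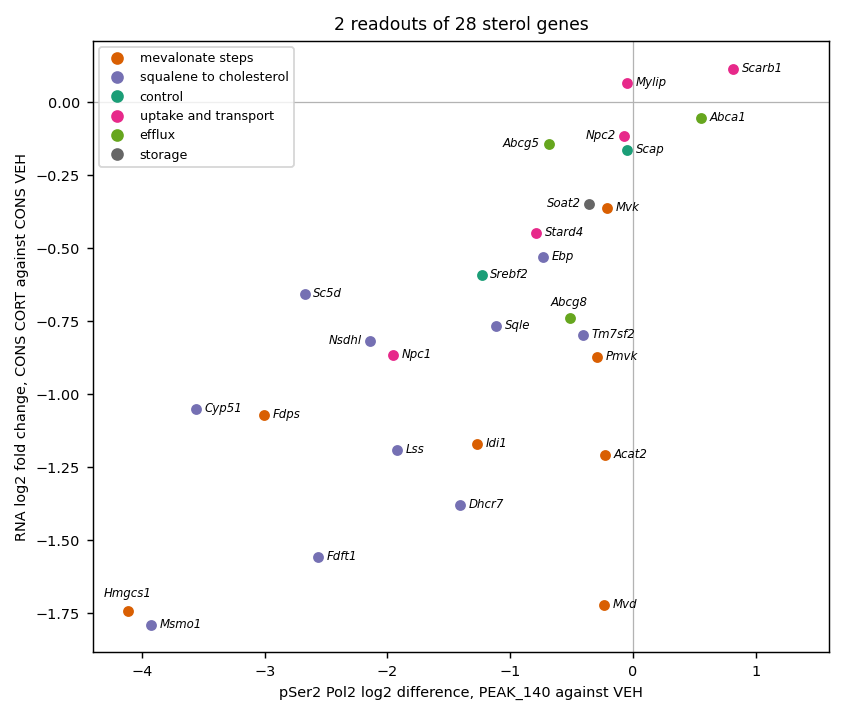
RNA log2 fold change after constant CORT (vertical axis) against the log2 difference of pSer2 Pol2 occupancy between PEAK_140 and VEH (horizontal axis), 1 point a gene, coloured by role. Hmgcs1 and Msmo1 are lowest on both axes, Mvd and Acat2 are low in RNA while their pSer2 Pol2 values lie near the lowest of the gene in most libraries, and Abca1 and Scarb1 lie near 0 in RNA and above 0 in pSer2 Pol2.

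GR ChIP-Seq asked whether the receptor occupied DNA near these genes. The 13 regions lay near 9 of the 29 genes (31%), against 23% of the 16500 genes with pSer2 Pol2 tags: 1 of 7 mevalonate enzymes (Hmgcs1), 3 of 11 later enzymes (Fdft1, Lss and Dhcr7), 0 of 2 control genes, 1 of 5 uptake genes (Scarb1), 3 of 3 efflux transporters and Soat2. Of the 16 genes whose RNA fell with constant CORT, these 4 enzymes were the ones with a region. Windows of 20 kb and 100 kb gave 7 regions near 6 genes and 27 near 13.

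Against VEH, limma called all 13 regions at PEAK_140 (12 higher and 1 lower), where 80.5% of all regions were called. It called 0 at NADIR_180 (6 at an unadjusted p below 0.05), where 7.79% of all regions were called, 11 at CONS_140 (background 65.1%) and 12 at CONS_180 (background 68.2%). Between PEAK_140 and NADIR_180, 10 of 13 were called, where 69.3% of all regions were. Counts near such shares are no result about sterol genes. The authors' peak lists, from the same libraries, set which regions were measured: 12 of the 13 were listed in a CORT group and not in VEH, 1 in VEH alone, and 0 in NADIR_180. Differences from VEH or from NADIR_180 were therefore partly fixed by that choice, and the values below are given as a description with no test. Occupancy rose in most regions, and the median over all 3981 exceeded VEH by 4.17 in PEAK_140, 0.84 in NADIR_180, 3.38 in CONS_140 and 3.46 in CONS_180. The differences below include that common rise: after median centring 1 of 13 regions was called in PEAK_140, that of Hmgcs1, the region listed in VEH alone, so that this call too was fixed by the choice of regions.

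**Figure D5:**
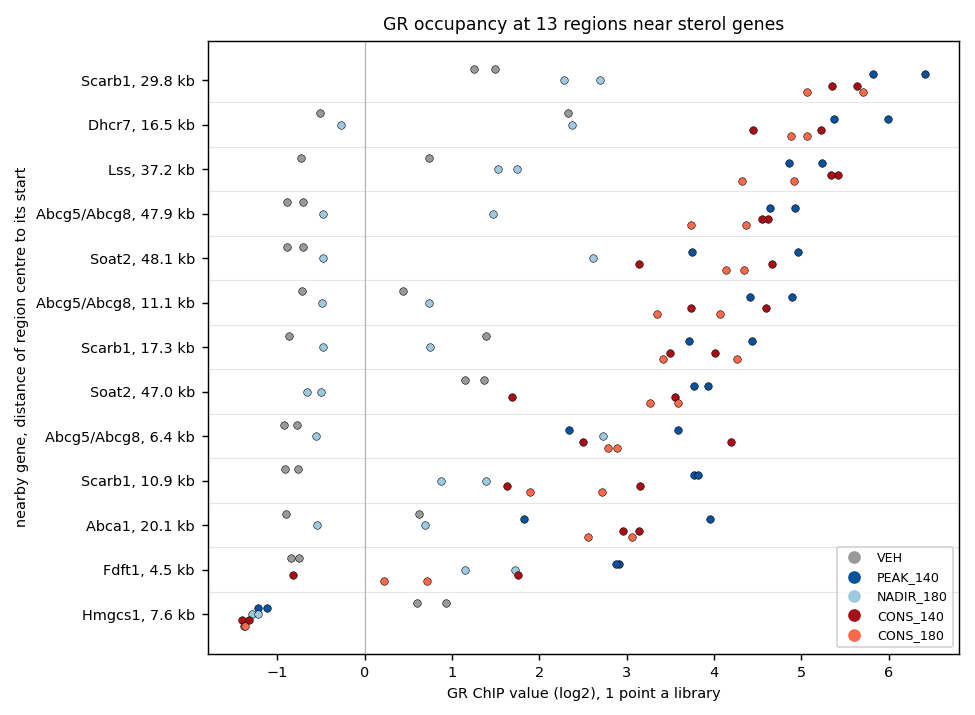
Deposited log2 GR occupancy (horizontal axis) at the 13 regions, ordered by mean, with 1 point for each of 10 libraries and the distance from the region's centre to the transcription start of the named gene. PEAK_140, CONS_140 and CONS_180 lie to the right of VEH in most regions, both NADIR_180 libraries lie above both VEH libraries in 7 of the 13 (against 63.5% of all regions), and the Hmgcs1 region runs the other way.

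The region with the highest mean lay 29.8 kb from a Scarb1 start inside the gene, and 69.2 and 69.3 kb from its other starts, beyond the 50 kb window (chr12:36763874-36764553, rn6, intergenic). It was at 1.49 and 1.25 in VEH, 6.42 and 5.82 in PEAK_140, 2.699 and 2.28 in NADIR_180, 5.64 and 5.35 in CONS_140 and 5.71 and 5.06 in CONS_180, so that the NADIR_180 libraries lay between VEH and the rest. The difference at PEAK_140 was 4.75 (SE 0.47) and that between PEAK_140 and NADIR_180 was 3.63. Dhcr7 had a region 16.5 kb from its start (chr1:217035217-217035842), which the deposited annotation places at the end of a transcript. It was at -0.51 and 2.33 in VEH, 5.38 and 5.99 in PEAK_140, 2.38 and -0.26 in NADIR_180, 5.22 and 4.44 in CONS_140 and 4.88 and 5.07 in CONS_180. The VEH and NADIR_180 libraries were split, and the difference at PEAK_140 was 4.77 (SE 1.06). The region 37.2 kb from Lss (chr20:12818370-12819011) fell in an exon and was closer to Ftcd. It was at 0.73 and -0.73 in VEH, 4.86 and 5.24 in PEAK_140, 1.53 and 1.74 in NADIR_180, 5.42 and 5.34 in CONS_140 and 4.32 and 4.91 in CONS_180 (5.05 at PEAK_140, SE 0.61).

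The Abcg5 and Abcg8 genes lie head to head and share 3 GR regions, all annotated as intronic with Abcg8 as the nearest gene. The one 47.9 kb away (chr6:8009007-8009764) was at -0.70 and -0.88 in VEH, 4.92 and 4.64 in PEAK_140, 1.47 and -0.48 in NADIR_180, 4.62 and 4.55 in CONS_140 and 4.37 and 3.74 in CONS_180 (5.57 at PEAK_140, SE 0.72). A nearer one, 11.1 kb away (chr6:7972272-7973019), was at -0.71 and 0.43 in VEH, 4.89 and 4.41 in PEAK_140, 0.73 and -0.49 in NADIR_180, 4.59 and 3.73 in CONS_140 and 3.35 and 4.07 in CONS_180 (4.79 at PEAK_140, SE 0.73). In both, VEH and NADIR_180 were low and the other 3 groups high without overlap. Soat2's higher region lay 48.1 kb away at the promoter of Tns2 (chr7:143706471-143707126), at -0.70 and -0.88 in VEH, 4.96 and 3.75 in PEAK_140, 2.61 and -0.48 in NADIR_180, 4.66 and 3.14 in CONS_140 and 4.35 and 4.14 in CONS_180, a difference of 5.15 at PEAK_140 (SE 1.02) and 3.29 between PEAK_140 and NADIR_180. Its NADIR_180 libraries were far apart. Without NADIR_180 replicate 2 the latter was 1.75. Abca1, Abcg5, Abcg8, Scarb1 and Soat2, all with GR regions, were not called in RNA in either pattern. The 7 lower regions (2 more of Scarb1, 1 more of Soat2, 1 more of Abcg8 and Abcg5, and those of Abca1, Fdft1 and Hmgcs1) had means over the 10 libraries of -0.88 to 2.41.

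The Hmgcs1 region ran against the others and is named here because its values were seen to differ. It is a short region in an intron, 7.64 kb from the start (chr2:52439171-52439320), and is the region that was listed in VEH alone, so that it was measured only through the group where it is high. It was at 0.93 and 0.60 in VEH, -1.22 and -1.11 in PEAK_140, -1.29 and -1.22 in NADIR_180, -1.41 and -1.32 in CONS_140 and -1.38 and -1.36 in CONS_180. The 8 CORT libraries lay close together below VEH, with differences of -1.93 in PEAK_140 (SE 0.77), -2.01 in NADIR_180, -2.13 in CONS_140 and -2.13 in CONS_180. The region falls within the Hmgcs1 stretch over which pSer2 Pol2 was counted, where occupancy was also highest in VEH.

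Of 15 genes of sterol sensing and of SREBP2's partners, RNA of 3 was called higher and 1 lower after constant CORT by edgeR, where 4.45% of all genes were called higher and 4.75% lower. After pulsatile CORT 2 were called higher and 1 lower, where 1.79% and 2.44% of all genes were. Insig1, which retains SREBP2 when sterols are high, was at 75.1, 208 and 80.9 CPM in CONS VEH and 259, 281 and 380.1 CPM in CONS CORT (1.35, SE 0.42, adjusted p = 0.0456). Its VEH libraries spread widely, but stayed below CORT. DESeq2 did not call it (adjusted p = 0.113), nor did edgeR without 9 of the 12 libraries in turn (1.09 to 1.46, adjusted p = 0.0522 to 0.174). With PULS, Insig1 was not called, and its groups overlapped. It was at 100.2, 47.2 and 212 CPM in VEH and 237, 280 and 184 CPM in CORT (0.59 to 1.66 without 1 library). Insig2, which acts in the same way, went down with CONS, from 455, 342 and 573 CPM to 223, 225 and 187 CPM (-1.11, SE 0.23, adjusted p = 0.00354). Its PULS groups overlapped without a call, at 411, 193 and 257 CPM in VEH and 193, 245 and 235 CPM in CORT. The ubiquitin ligase gene Rnf139 rose with both patterns (0.82 with CONS, adjusted p = 0.00105, and 0.77 with PULS, adjusted p = 0.00782). So did Ube2g2, a ubiquitin-conjugating enzyme (1.33, adjusted p = 1.09e-05, and 0.72, adjusted p = 0.0101), though its PULS call was lost without PULS CORT replicate 1 (0.59, adjusted p = 0.0603). Ube2g2 was also higher in CONS CORT (47.1, 45.5 and 43.3 CPM) than in PULS CORT (33.1, 26.2 and 26.1 CPM), by 0.66 (adjusted p = 0.0331). That call was lost without any one CONS CORT library or PULS CORT replicate 2 or 3 (0.60 to 0.69, adjusted p = 0.0638 to 0.185), and the difference of the responses had an adjusted p of 0.212. Nfyb, a subunit of NF-Y, was called lower with PULS (-1.03, adjusted p = 0.028), though its groups overlapped and the call was lost without PULS CORT replicate 1 or 2 or PULS VEH replicate 2 (-0.91 to -0.64, adjusted p = 0.115 to 0.134). With CONS, Nfyb was not called, but its groups did not overlap. It was at 22.1, 26.2 and 27.9 CPM in CONS VEH and 16.5, 18.7 and 15.9 CPM in CONS CORT (-0.66 to -0.49 without 1 library).

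Polymerase on the INSIG genes swung within a pulse. Insig1 was at 10.22 and 10.01 in VEH, 10.62 and 10.84 in PEAK_140, 7.61 and 7.49 in NADIR_180, 10.95 and 10.64 in CONS_140 and 10.51 and 10.22 in CONS_180. The NADIR_180 libraries stood alone, at -2.57 from VEH (SE 0.27, limma adjusted p = 0.0221), and PEAK_140 and CONS_180 exceeded them by 3.18 (adjusted p = 0.00248) and 2.82 (adjusted p = 0.00289). The call against VEH was lost without 7 of the 10 libraries in turn (-2.67 to -2.46, adjusted p = 0.0585 to 0.263), that against PEAK_140 without NADIR_180 replicate 1 (adjusted p = 0.0531), and that against CONS_180 without NADIR_180 replicate 1 or either CONS_180 library (adjusted p = 0.0537 to 0.189). Insig2 was at 9.93 and 9.59 in VEH, 6.69 and 6.75 in PEAK_140, 9.23 and 9.72 in NADIR_180, 9.32 and 9.096 in CONS_140 and 8.57 and 8.49 in CONS_180. Here it was PEAK_140 that stood alone, at -3.04 from VEH (SE 0.31, adjusted p = 0.00128) and -2.76 from NADIR_180 (adjusted p = 0.00301). The call against VEH held without any one library, and that against NADIR_180 was lost without replicate 1 of PEAK_140 or NADIR_180 (adjusted p = 0.0659 to 0.0688).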

How the data were processed

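RNA, GR and pSer2 Pol2 were measured in rat liver (12, 10 and 10 libraries). For RNA the deposited values are unnormalized counts of reads per gene, and for both ChIP assays the authors gave input-subtracted log2 values per region and library, with region and peak positions in rn6 (other columns). Their notes name Trimmomatic 0.36, STAR, featureCounts 1.6.2, HOMER 4.9.1 and rn6. The GR scaling is described once as relative to tags in binding regions and once to total tags, and low ChIP values appear drawn towards the region's mean. Deposited fold changes and p-values of the authors' own comparisons were not used. Reads shared with near-identical gene copies could not be separated here.

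Genes were found by symbol in the pSer2 Pol2 table and joined to counts by Ensembl identifier. Members and lists were chosen with earlier results of these data known. RNA counts of genes with more than 10 reads were fitted with edgeR 4.0.16 (TMM, quasi-likelihood, 12 libraries), ChIP values with limma 3.58.1 (trend, 10 libraries; 38315 pSer2 Pol2 regions with tags and 3981 GR regions) in R 4.3.3. A call needed a Benjamini-Hochberg adjusted p below 0.05 over all features and at least a 1.5-fold change. The tests were checked on simulated data. Named genes were those called in any RNA or pSer2 Pol2 comparison, with Srebf2, Scap, Abca1, Abcg5, Abcg8 and Scarb1 in any case, and the 6 GR regions with the highest mean. Pathway genes were named where called.

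Replicates were compared before averaging: RNA counts of a group differed by more than sampling noise (chi-square per degree of freedom 5.13 to 27.1), and 0 library columns were identical. The labels do not say that RNA replicates are separate rats, so p-values measure the spread between these libraries. In pSer2 Pol2, CORT libraries of the same number deviated together in 12 of 12 pairs (r = 0.15 to 0.55 across regions). With 2 libraries a group the deviations mirror each other, so these pairs are not independent. The main fits had no block, and the number entered as a pairing only in an alternative fit. VEH ChIP libraries carry no number. Alternatives were DESeq2 1.42.0, other filters and scalings, fewer libraries, a replicate block and other windows. Figures were drawn with matplotlib 3.10.9.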

Additional observations from a re-analysis of the deposited data

How the results depend on the processing

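Groups held 2 or 3 libraries, and pSer2 Pol2 values lay near the lowest of the gene in at least 5 libraries for 9 genes and in both PEAK_140 libraries for 15. Of the values for single genes, 1276 of 1330 in RNA and 1731 of 1877 in pSer2 Pol2 kept their side of the threshold and 0 changed sign while called. The causes of the changes below were not tested. Counts in this section stand without the share of all features called under the same setting.

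In RNA, called genes went from 0 to 3 with PULS when no read filter was used, from 0 to 2 (DESeq2) or 1 (no filter) for the difference of the responses, and from 0 to 2 (DESeq2) or 7 (no filter) for CONS CORT against PULS CORT. Leaving out 1 library gave 0 to 2 with PULS and 0 to 3 for CONS CORT against PULS CORT (3 without CONS CORT replicate 3).

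In pSer2 Pol2, the 6 called at PEAK_140 became 0 in a fit of the 4 libraries alone and 0 to 4 without 1 library. Median centring gave 1 at NADIR_180, 7 at CONS_140 and 3 at CONS_180, and quantile normalization 8 at CONS_140 and 4 at CONS_180. At CONS_140 the count was 0 with 4 libraries, 0 to 3 without 1 library (3 without CONS_140 replicate 2, 0 without its replicate 1, either VEH or either NADIR_180 library), 2 when any region of a gene counted and 4 when only regions above the median value were tested, which gave 2 at CONS_180. The 1 gene between PEAK_140 and NADIR_180 became 0 with no variance trend, with 4 libraries and without any 1 library.

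In GR, median centring and quantile normalization gave 1 and 2 regions at PEAK_140, 2 and 2 at CONS_140, 1 and 2 at CONS_180, and 0 and 0 between PEAK_140 and NADIR_180, and quantile normalization gave 1 at NADIR_180. A 20 kb window gave 7, 6, 6 and 4 regions in the first 4 of these comparisons and a 100 kb window 22, 17, 21 and 17. Without 1 library the count was 0 to 3 at NADIR_180 (3 without its replicate 2, 1 or 2 without a CONS_140 library) and 7 to 12 at CONS_180 (7 without its replicate 2). Centring removes the common rise, so that regions near the median must fall near 0, and their signs say nothing of stability: it gave negative values at the Dhcr7 region (CONS_140, -0.19), the Scarb1 region (CONS_180, -0.049), the Abcg8 region 11.1 kb away (CONS_180, -0.21; quantile normalization -0.11), the Lss region (PEAK_140 against NADIR_180, -0.022) and the Soat2 region (the same comparison, -0.15; quantile normalization -0.16).

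With the replicate number as a block, called RNA genes were 0 with PULS and 16 with CONS, as without it, and GR regions 10 between PEAK_140 and NADIR_180. In pSer2 Pol2 the block took the 1 gene of PEAK_140 against NADIR_180 to 0, and CONS_180 against NADIR_180 stayed at 0. RNA libraries of the same number were uncorrelated (r = -0.05 to 0.08 over 18 pairs, and 7 of 12 libraries correlated best with their own number), as were GR libraries (r = -0.03 to 0.07), and these numbers were not taken as a pairing. One CONS_140 GR library is labelled replicate 25 and was counted there as the second of its pair. With 25 kept as a number of its own, chosen after seeing the data, r was -0.03 to 0.07 over 9 pairs and the block again gave 10 regions between PEAK_140 and NADIR_180.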

Other observations

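Beside the cholesterol steps, 3 neighbouring groups of genes were measured. Of 7 genes of the LXR axis, 2 were called lower in RNA after constant CORT by edgeR, where 4.75% of all genes were, and 0 after pulsatile CORT, where 2.44% were. Srebf1, the gene of the lipogenic SREBP1, was at 218, 212 and 252 CPM in CONS VEH and 50.4, 111 and 72.00 CPM in CONS CORT (-1.54, SE 0.28, adjusted p = 0.00148), against 219.7, 119 and 254 CPM in PULS VEH and 160.1, 212 and 281 CPM in PULS CORT (0.14, adjusted p = 0.842). Its CONS CORT libraries lay below all 9 others, and CONS CORT differed from PULS CORT by -1.48 (adjusted p = 0.0202; not called without CONS CORT replicate 1 or 3 or PULS CORT replicate 2 or 3, at -1.49 to -1.25, adjusted p = 0.0748 to 0.112), while the difference of the responses had an adjusted p of 0.0887. Lpcat3, a phospholipid acyltransferase, was the other (-0.68, adjusted p = 0.00544; -0.56 without CONS CORT replicate 3, under the fold threshold).

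Of 11 genes that use farnesyl diphosphate for other isoprenoids, 1 was called, in both patterns and upward, where 9.2% of all genes were called with CONS and 4.23% with PULS, so that the count is no result about the list. This was Dhdds, of dolichol synthesis, at 1.304 with CONS (adjusted p = 2.17e-05) and 0.81 with PULS (adjusted p = 0.00537) by edgeR. The median of that list was 0.052 with CONS. Of 15 further genes of sterol transport and storage, 0 were called in either pattern by edgeR, with medians of -0.089 with CONS and 0.16 with PULS.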
